A study of Mus musculus with 5 samples.

Results

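Wnt2 and Wnt2b, secreted ligands of the canonical Wnt pathway, and the R-spondins Rspo1, Rspo2 and Rspo3, which strengthen the response to such ligands, were followed across the cells of the mouse colon mesenchyme. These 5 genes were taken by symbol from the 20355 genes of the count tables. Their counts were read in the 5985 of 7935 cell barcodes that had at least 300 genes and at most 10% mitochondrial UMIs and were not marked as doublets. A UMI (unique molecular identifier) stands for 1 captured transcript.

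Canonical Wnt ligands bind a Frizzled receptor together with Lrp5 or Lrp6 and so stabilise beta-catenin (Ctnnb1), which acts with TCF and LEF factors on target genes such as Axin2. R-spondins bind the receptors Lgr4, Lgr5 or Lgr6 and the membrane ligases Rnf43 and Znrf3, which otherwise remove Frizzled receptors from the cell surface. In the gut, stem cells at the crypt base depend on both kinds of signal, and the mesenchyme around the crypts is a known source of them.

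Drop-seq, which pairs a cell with a barcoded bead inside a droplet and captures polyadenylated RNA, was applied to freshly isolated cells of untreated C57/BL6 mice aged 10 weeks. Epithelium was first removed with EDTA and DTT, and Collagenase XI and Dispase then freed the mesenchymal cells, per the labels' protocols. Replicate 1 gave the collections 1A and 1B, and replicate 2 gave 2A, 2B and 2C. All 5 formed a single group, so no conditions were compared. The labels do not give the number of animals behind a replicate, so the p-values below measure only the spread between these samples, which may be technical.

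A collection held 1636550 to 3345732 UMIs and 860 to 1727 retained cells. A retained cell held 1330 UMIs and 757 genes at the median, and 10 barcodes occurred in more than 1 collection. Cell classes were rebuilt from clusters and marker genes and are therefore called "like" a cell type. The 7 fibroblast markers (Pdgfra, Dcn, Lum, Col1a1, Col1a2, Col3a1 and Dpt) summed to 31582 and 29440 CPM (a gene's UMIs per 1000000 UMIs of a sum) in fibroblast-like cells of replicates 1 and 2. The 6 lymphatic markers, Prox1, Lyve1 and Flt4 among them, summed to 24546 and 23168 CPM in lymphatic endothelial-like cells and to 382 and 369 CPM in fibroblast-like cells. In smooth muscle-like cells the 7 smooth muscle markers summed to 18459 and 15254 CPM, and the fibroblast markers to 8539 and 10399 CPM, against 745 and 1642 CPM of fibroblast markers in lymphatic endothelial-like cells.

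The 5 genes were captured sparsely. All barcodes together held 273 UMIs of Rspo3, 237 of Wnt2b, 44 of Wnt2, 31 of Rspo1 and 9 of Rspo2. In the order 1A, 1B, 2A, 2B and 2C, Rspo3 had 64, 89, 38, 49 and 33 UMIs and Wnt2b had 68, 43, 43, 47 and 36. Rspo1 had no UMI in collection 2B and Rspo2 had none in 1A. Levels were therefore compared on counts summed over the cells of a class or cluster within a biological replicate, with edgeR's quasi-likelihood test and p-values adjusted by the Benjamini-Hochberg method over all genes tested. Of the 5 genes, only Rspo3 passed the filter on low counts among the 10 cell classes, and only Wnt2b and Rspo3 passed it among the 6 fibroblast clusters. A gene that passed through the class where it was high had to differ there, so passing supports nothing about these genes. All 5 were therefore also tested with no filter.

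Each gene has its own place in the genome (GRCm38, the assembly also called mm10, GENCODE M21). Wnt2 lies at chr6:17988940-18030585 and Wnt2b at chr3:104945272-104961921, both on the minus strand. Rspo1 lies at chr4:124986430-125009099 on the plus strand, Rspo2 at chr15:43020794-43170826 and Rspo3 at chr10:29452416-29535867 on the minus strand. Wnt2b overlaps a sense intronic transcript (Gm43846), Rspo1 an antisense gene (Gm12930) and Rspo3 an antisense gene (Gm48159) and an unclassified transcript (Gm20276), and how such overlaps were counted is not given in the sources used here. Matching by symbol to RefSeq promoters of GRCm38.p6 found Wnt2, Wnt2b and Rspo1. The RefSeq windows hold the 250 bases before the RefSeq start, at chr3:104961710-104961959 for Wnt2b, chr6:18030446-18030695 for Wnt2 and chr4:124986180-124986429 for Rspo1. GENCODE starts both ligand genes further upstream, so that 212 bases of the Wnt2b window and 140 bases of the Wnt2 window lie inside the annotated gene and are not printed, and none of the Rspo1 window does. The bases outside the annotated genes are shown for these 3 genes, which were detected mainly in fibroblast-like cells. They lie at chr3:104961922-104961959 for Wnt2b and chr6:18030586-18030695 for Wnt2, read 5′ to 3′ along the minus strand, and fill the whole Rspo1 window on the plus strand. Capitals mark GC boxes (GGGCGG or CCGCCC) and CCAAT boxes (CCAAT or ATTGG), searched on both strands.
Wnt2b: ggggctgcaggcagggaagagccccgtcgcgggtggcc
Wnt2: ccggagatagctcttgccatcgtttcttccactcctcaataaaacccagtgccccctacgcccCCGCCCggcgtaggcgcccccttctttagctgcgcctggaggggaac
Rspo1: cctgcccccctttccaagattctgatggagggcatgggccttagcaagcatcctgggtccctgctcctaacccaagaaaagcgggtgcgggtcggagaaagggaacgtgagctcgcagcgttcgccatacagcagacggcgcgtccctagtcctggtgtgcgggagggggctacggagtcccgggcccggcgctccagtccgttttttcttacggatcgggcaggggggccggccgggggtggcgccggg
The whole Wnt2b window was 80.8% G and C with 36 CpG pairs, and it held 3 GC boxes, 2 of them overlapping by 1 base, and 1 CCAAT box, none of them within the bases shown. The whole Wnt2 window was 63.6% G and C with 20 CpG pairs and held the GC box shown and 1 CCAAT box not within the bases shown, while the Rspo1 window (66.8% G and C, 22 CpG pairs) held neither. Over all 32851 promoters of this length the medians were 52.4% and 6 CpG pairs, and 32.7% held a GC box and 33.8% a CCAAT box. A TATA box (TATAAA), the TCF and LEF motif CTTTGAT, the GLI motif GACCACCCA and the forkhead motif TGTTTAC matched none of the 3 windows, and were held by 12.4%, 3.21%, 0.225% and 3.17% of all promoters. A match is a description of letters and shows no binding.

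Wnt2b, a canonical ligand made by mesenchymal cells, was mostly a fibroblast gene in these cells. Its UMIs numbered 222 in retained cells, of which 193 (86.9%) were in fibroblast-like cells. The level there was 39.8 CPM in replicate 1 and 45.0 CPM in replicate 2. Smooth muscle-like cells had 47.8 and 24.6 CPM from 12 UMIs, a range that spans the fibroblast values, and macrophage-like cells had 5.92 and 5.88 CPM from 6 UMIs. Lymphatic endothelial-like, pericyte-like and B cell-like cells had no UMI, so the fibroblast level was at least 5.53-fold, 3.62-fold and 4.0-fold above the level that 3 counts would give in the summed cells of each. With no filter on low counts, Wnt2b was called higher than the average of the other classes on the log scale in fibroblast-like cells (edgeR adjusted p = 7.3e-27) and in smooth muscle-like cells (edgeR adjusted p = 7.9e-06). Of all 19640 genes tested that way, 20% were called higher in fibroblast-like and 7.4% in smooth muscle-like cells.

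The plot of levels by class shows all 5 genes side by side.

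**Figure D1:**
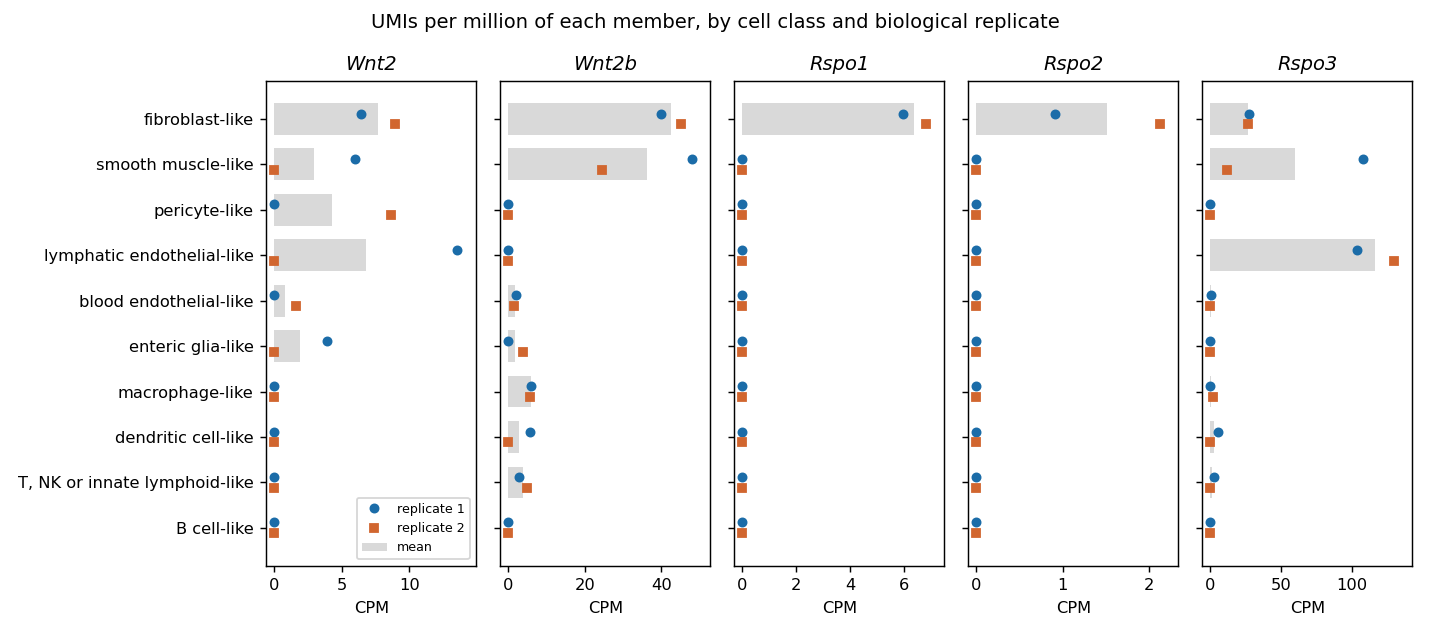
Level of each gene (CPM, horizontal axis, with its own range in each panel) in the 10 cell classes (vertical axis). Circles are biological replicate 1, squares biological replicate 2 and grey bars their mean; Rspo3 stood at 104 and 129 CPM in lymphatic endothelial-like cells, where Wnt2b had no UMI, and its 2 values in smooth muscle-like cells lay far apart at 108 and 12.3 CPM.

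Within the fibroblast-like cells Wnt2b was uneven. These 3124 cells fell into 6 clusters made without the Wnt pathway genes, so the 5 genes did not shape them, although clusters and sums came from the same cells, which makes p-values between clusters too small. Cluster 1 (940 cells, with Igfbp5, Adam23 and Sfrp1 among its 10 leading genes) had 85.0 and 88.2 CPM of Wnt2b in replicates 1 and 2, and cluster 3 (556 cells, led by Rarres2, Stmn2 and Igfbp4) had 66.0 and 67.1 CPM. Cluster 4 (401 cells, led by Saa3 and Niacr1) had 22.6 and 24.1 CPM, cluster 2 (587 cells, led by Has1, Gfpt2 and Pcolce2) had 16.7 and 21.7 CPM, and cluster 6 (313 cells, led by Rbp4, Cav1 and Procr) had 25.6 and 13.1 CPM. Cluster 5 (327 cells, led by Plau, Nrg1 and Ednrb) had no Wnt2b UMI among 193 in all, which places cluster 1 at least 16.5-fold above the level of 3 counts there. The gene at the top of cluster 1, Clu, came from few cells, as 155 of its 166 UMIs there lay in 6 cells, which held no UMI of the 5 genes. Both replicates of clusters 1 and 3 lay above both replicates of every other cluster.

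Wnt2b was called higher in cluster 1 (edgeR adjusted p = 5.6e-12) and cluster 3 (adjusted p = 4.9e-06) and lower in cluster 5 (adjusted p = 3.8e-06) than the average of the other clusters on the log scale. Of the 6368 genes tested, 7.04% were higher in cluster 1, 12.7% were higher in cluster 3 and 8.97% were lower in cluster 5. With no filter on low counts the 3 edgeR adjusted p-values were 1.3e-15, 4.5e-06 and 2.6e-06, where 2.58%, 4.04% and 2.78% of 17380 genes were called. With each cell's UMIs split, so that clusters and sums shared none, the fitted log2 fold change in cluster 5 moved from -6.66 to -1.38 and lost its call (edgeR adjusted p = 0.16, with a range of 2.4e-06 to 0.0019 over the other settings, DESeq2 included), and Wnt2b in cluster 3 did not pass the filter. In pairs, cluster 1 exceeded cluster 2 by 2.05 ± 0.34 (log2 fold change ± SE, edgeR adjusted p = 6.1e-07), cluster 4 by 1.7 ± 0.36 (adjusted p = 1.5e-04) and cluster 6 by 2.38 ± 0.49 (adjusted p = 1.3e-04), where 11.3%, 4.07% and 5.98% of genes were higher. Cluster 3 was also higher than clusters 2, 4 and 6, with adjusted p-values of 0.0010, 0.027 and 0.014 against 16.1%, 7.27% and 4.19% of genes called in that direction. With no filter on low counts the call against cluster 4 was lost (edgeR adjusted p = 0.072). Those against clusters 2 and 6 held (adjusted p = 0.0051 and 0.023). The log2 fold change of 0.51 ± 0.28 between clusters 1 and 3 did not pass (edgeR adjusted p = 0.35), and clusters 2, 4 and 6 did not differ beyond the threshold from each other.

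By collection, clusters 1 and 3 overlapped over much of their ranges, and both lay above cluster 2. In cluster 1 the 5 collections ranged from 59.9 to 104 CPM with a median of 100.1, and in cluster 3 from 38.6 to 94.0 CPM with a median of 70.1. Cluster 2 ranged from 6.0 to 34.9 CPM, below every collection of clusters 1 and 3. A finer division into 8 tested clusters kept Wnt2b high in 3 of them. The cells led by Igfbp5, Sfrp1 and Igfbp3 had 82.2 and 111 CPM, those led by Serpina3n, Sfrp1 and Ces1d had 95.7 and 74.8 CPM, and those led by Stmn2, Osr1 and S100a4 had 56.3 and 57.8 CPM. All 3 were called higher (edgeR adjusted p = 1.6e-11, 3.0e-07 and 8.4e-04, where 5.74%, 10.9% and 7.49% of 5838 genes were). The finer cluster led by Plau and Nrg1 again had no Wnt2b UMI. When barcodes were clustered with no mitochondrial limit, the fibroblast-like cluster led by Nrg1, Ptgs2 and Plau (296 cells) held 3 Wnt2b UMIs. All 3 were in barcodes at or below 10%, so the absence depends on where the cluster border falls.

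Few cells showed the transcript at this depth. Of the fibroblast-like cells 174 (5.57%, exact 95% binomial interval 4.79 to 6.43%) held a Wnt2b UMI, against 0 of 228 B cell-like cells, which allows a share of up to 1.32%. Median depths were 1286 and 1026 UMIs. With every cell thinned to 700 UMIs and shallower cells left out (424 and 58), 90 of 2700 fibroblast-like cells (3.33%) and 0 of 170 B cell-like cells held one. Thinned shares were 5.72% in cluster 1 (47 of 822 cells), 6.19% in cluster 3 (27 of 436) and 0 of 311 in cluster 5, where up to 0.965% is allowed. These intervals and limits cover counting error only.

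**Figure D2:**
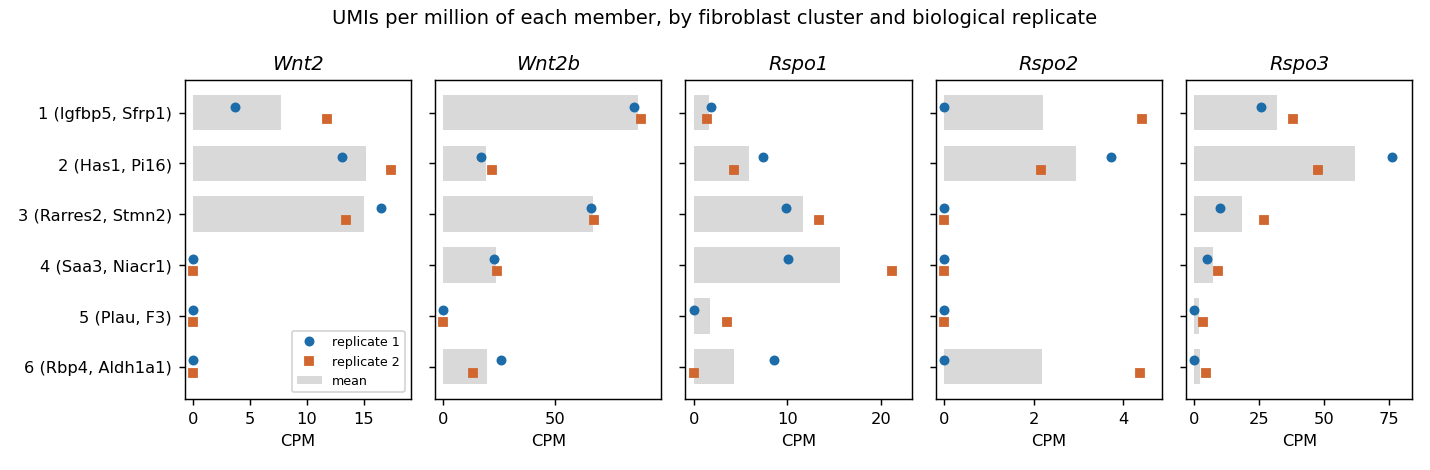
Level of each gene (CPM, horizontal axis, with its own range in each panel) in the 6 fibroblast clusters (vertical axis, with 2 leading or marker genes each). Circles are biological replicate 1, squares biological replicate 2 and grey bars their mean; Wnt2b was highest in clusters 1 and 3, Rspo3 in cluster 2, and Wnt2 had no UMI in clusters 4, 5 and 6.

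Wnt2, the second canonical ligand, was rarer, and its fibroblast UMIs lay in clusters 1, 2 and 3. Fibroblast-like cells held 35 of its 42 retained UMIs, at 6.40 CPM in replicate 1 and 8.91 CPM in replicate 2, and each of the 5 collections had 5 to 9 UMIs there. With no filter on low counts it was called higher in fibroblast-like cells than the average of the other classes on the log scale (edgeR adjusted p = 5.6e-04). Set directly against lymphatic endothelial-like, pericyte-like and smooth muscle-like cells it did not pass (adjusted p = 0.987, 0.986 and 0.937). In these classes 3 counts would have given 7.66, 11.7 and 9.09 CPM, no lower than the fibroblast mean of 7.66 CPM, so a difference was not detectable at this depth. Lymphatic endothelial-like cells held 3 UMIs, all in 1 cell of collection 1A. Blood endothelial-like, enteric glia-like, pericyte-like and smooth muscle-like cells held 1 UMI each. Among the fibroblast clusters, cluster 2 had 15 UMIs (13.0 and 17.3 CPM), cluster 3 had 10 (16.5 and 13.4 CPM) and cluster 1 had 10 (3.69 and 11.8 CPM). Clusters 4, 5 and 6 had none, so cluster 2 was at least 3.69-fold, 2.90-fold and 1.75-fold above the level of 3 counts in each. In clusters made with no mitochondrial limit, those led by Saa3 and by Ogn and Bmp5 held 1 Wnt2 UMI each, in barcodes at or below 10%. The unfiltered test called Wnt2 higher in cluster 2 (edgeR adjusted p = 2.4e-04, as were 9.58% of 17380 genes) and in cluster 3 (adjusted p = 0.0093, 4.04% of genes). Clusters 1, 2 and 3 did not differ from each other beyond the threshold (adjusted p = 0.51 for 1 and 2, 0.996 for 1 and 3, and 0.88 for 2 and 3).

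Rspo3, an R-spondin of the intestinal stroma and of endothelium, had 3 separate locations. Lymphatic endothelial-like cells stood at 104 CPM in replicate 1 (23 UMIs) and 129 CPM in replicate 2 (22 UMIs), a mean of 117 ± 18.2 (SD, n = 2). Fibroblast-like cells stood at 27.4 and 26.7 CPM (60 and 63 UMIs). Smooth muscle-like cells stood at 108 and 12.3 CPM (18 and 2 UMIs), so their replicates did not agree. Pericyte-like, enteric glia-like and B cell-like cells had no UMI, and no other tested class had more than 1. The lymphatic mean was at least 9.95-fold above the level of 3 counts in pericyte-like cells and at least 19.9-fold above it in enteric glia-like cells.

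Rspo3 was called higher than the average of the other classes on the log scale in lymphatic endothelial-like cells (edgeR adjusted p = 4.1e-21), fibroblast-like cells (adjusted p = 2.5e-12) and smooth muscle-like cells (adjusted p = 7.8e-10). Of the 6929 genes tested, 20.5%, 33.4% and 18.9% were called higher in those classes. With no filter on low counts the edgeR adjusted p-values were 4.9e-27, 2.0e-14 and 8.2e-11. Of 19640 genes, 8.46%, 20% and 7.4% were called higher that way. The pairs that follow come from the filtered fit, and with no filter the same pairs passed the threshold. Set directly against each other, fibroblast-like cells were lower than lymphatic endothelial-like cells by a log2 fold change of -1.79 ± 0.39 (edgeR adjusted p = 3.2e-05, 13.6% of genes lower), a call that DESeq2 did not make (adjusted p = 0.070). The smooth muscle level differed from neither beyond the threshold. Its log2 differences were 0.87 ± 0.48 above fibroblast-like cells (coded as fibroblast minus smooth muscle, -0.87; adjusted p = 0.23) and 0.92 ± 0.49 below lymphatic endothelial-like cells (adjusted p = 0.16). Blood endothelial-like cells had 1 Rspo3 UMI in 575 cells, and were below fibroblast-like (adjusted p = 1.3e-09, 28.9% of genes on that side) and lymphatic endothelial-like cells (adjusted p = 2.8e-16, 16.5%).

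Every collection showed Rspo3 in the lymphatic cells. In the order 1A, 1B, 2A, 2B and 2C the values were 91.7, 121, 130, 208 and 66.3 CPM, from 12, 11, 8, 10 and 4 UMIs. Of 166 lymphatic endothelial-like cells 32 held an Rspo3 UMI (19.3%, interval 13.6 to 26.1%), at a median depth of 1529.5 UMIs, against 0 of 228 B cell-like cells. After thinning to 700 UMIs it was 10 of 144 (6.94%, 3.38 to 12.4%), against 41 of 2700 fibroblast-like cells (1.52%, 1.09 to 2.05%) and 0 of 170 B cell-like cells, with 22, 424 and 58 shallower cells left out. Wnt2b had no UMI in any of these 166 cells and Rspo1 and Rspo2 had none either.

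In smooth muscle-like cells the Rspo3 level rested on collection 1B. The collections had 34.6, 186, 29.2, 0 and 0 CPM, from 3, 15, 2, 0 and 0 UMIs, and 7 of the 15 UMIs of collection 1B were in 1 cell. Without collection 1B the higher call in smooth muscle-like cells held, and the log2 difference between lymphatic endothelial-like and smooth muscle-like cells moved from 0.92 to 2.45 and passed the threshold (edgeR adjusted p = 0.0059, with a range of 0.0021 to 0.75 over all settings tried). With a mitochondrial limit of 5% the smooth muscle call was lost (adjusted p = 1). The fibroblast markers in smooth muscle-like cells are given above, and their part in these values was not tested.

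**Figure D3:**
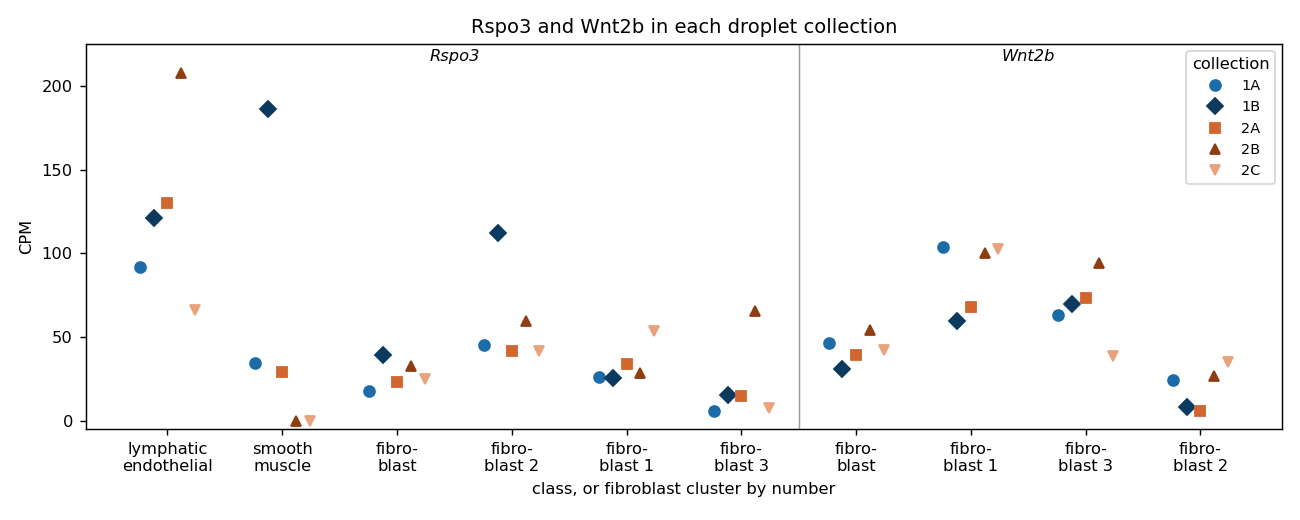
Level (CPM, vertical axis) of Rspo3, left of the line, and Wnt2b, right of it, in each of the 5 droplet collections (symbols) for classes and for fibroblast clusters 1, 2 and 3 (horizontal axis). Collection 1B stands above the others for Rspo3 in smooth muscle-like cells (186 CPM) and in fibroblast cluster 2 (112 CPM), and lymphatic endothelial-like cells range from 66.3 to 208 CPM.

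The limit on mitochondrial UMIs weighed more on Rspo3 than on the other genes. Barcodes above 10% held 70 of the 273 Rspo3 UMIs, and 10 of the 237 Wnt2b UMIs. When all barcodes with at least 300 genes were clustered with no such limit, an alternative chosen after seeing the data, a smooth muscle-like cluster led by Cnn1, Des and Actg2 held 88 Rspo3 UMIs. Of its 320 cells 284 were above the limit, with a median of 20.5% mitochondrial UMIs. Its Rspo3 level was 137 CPM in replicate 1 (57 UMIs) and 202 CPM in replicate 2 (31 UMIs). Barcodes above the limit gave 69 of these UMIs (137 CPM) and barcodes at or below it 19 (291 CPM).

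A second smooth muscle-like cluster, led by Hhip, Lmod1 and Nexn (227 cells, 18 above the limit), held 1 Rspo3 UMI (3.66 CPM). Des, an intermediate filament gene of muscle, stood at 5430 CPM in the first cluster and 242 CPM in the second, and Hhip, a Hedgehog-binding protein, at 15.8 and 1506 CPM. The Des cluster also held markers of interstitial cells of Cajal, the pacemaker cells of the gut muscle (Kit 86.2 CPM, Ano1 218 CPM), and of pericytes (Rgs5 2592 CPM), whose part in the Rspo3 level was not tested, and its fibroblast marker Dcn stood at 397 CPM against 16181 CPM in the fibroblast-like cluster led by Has1. The pericyte-like cluster, with 7026 CPM of Rgs5, 217 CPM of Ano1 and no Kit UMI, had no Rspo3 UMI. Rspo3 was called higher in the Des cluster (edgeR adjusted p = 2.2e-53, as were 20.4% of 8460 genes) and in the lymphatic cluster (adjusted p = 4.9e-26, 18.0%) than in the mean of the other clusters. This clustering was chosen after seeing the data, and clusters and sums came from the same cells, so these p-values are too small. These clusters were not tested with no filter on low counts or with split UMIs. The lymphatic values barely moved, at 103 and 127 CPM.

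**Figure D4:**
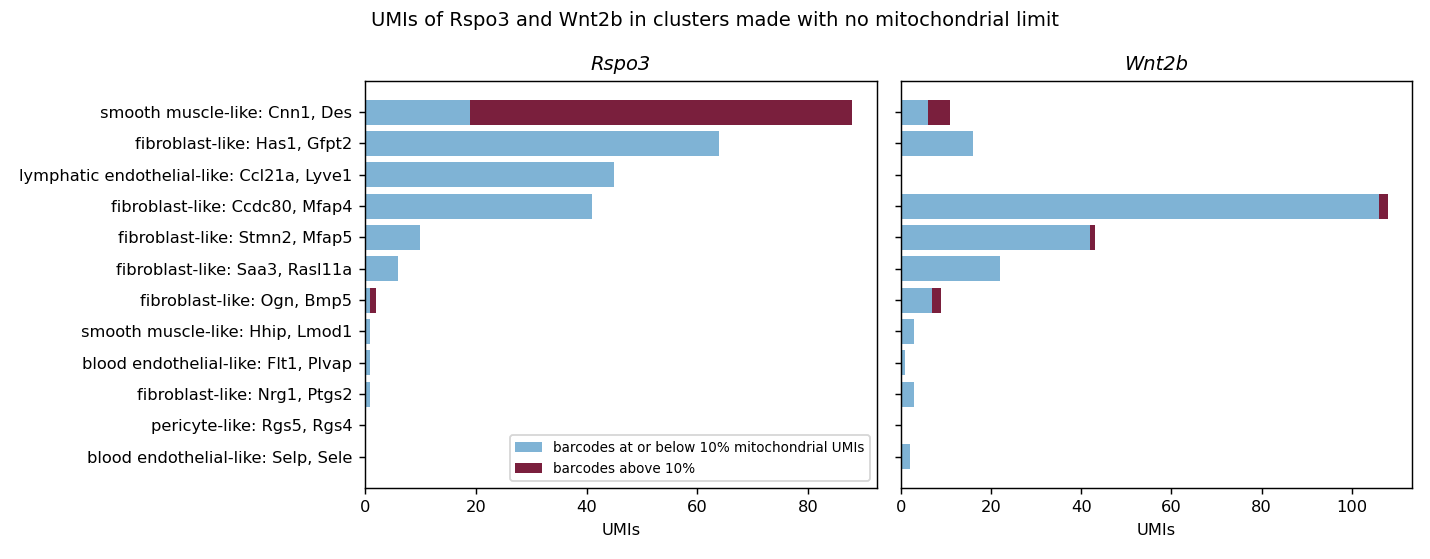
UMIs (horizontal axis) of Rspo3, left, and Wnt2b, right, in mesenchymal clusters made with no mitochondrial limit (vertical axis, with 2 leading genes each). Light bars are barcodes at or below 10% mitochondrial UMIs and dark bars those above; 69 of the 88 Rspo3 UMIs of the Cnn1 and Des cluster lay in barcodes above the limit.

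Among the fibroblasts Rspo3 followed another order than Wnt2b. Cluster 2, led by the hyaluronan synthase gene Has1 and by Gfpt2, Pcolce2 and Pi16, had 76.3 and 47.7 CPM in replicates 1 and 2 (41 and 22 UMIs). Cluster 1 had 25.9 and 38.2 CPM (14 and 26 UMIs), cluster 3 had 9.90 and 26.8 CPM (3 and 10 UMIs) and cluster 4 had 5.03 and 9.05 CPM (2 and 3 UMIs). Clusters 5 and 6 had 1 UMI each. Both replicates of cluster 2 lay above both replicates of every other cluster, and those of clusters 1 and 3 overlapped.

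Relative to the average of the other clusters on the log scale Rspo3 was higher in cluster 2 by a log2 fold change of 3.10 ± 0.39 (edgeR adjusted p = 5.9e-11) and in cluster 1 by 1.81 ± 0.44 (adjusted p = 0.0013). Of all genes tested 20.7% and 7.04% were called higher in these clusters. With no filter on low counts the edgeR adjusted p-values were 6.0e-16 and 7.4e-04, where 9.58% and 2.58% of 17380 genes were called higher. With split UMIs, and with a mitochondrial limit of 5%, Rspo3 did not pass the filter in the fibroblast clusters, so neither setting gave a call. Cluster 2 was above cluster 3 by 1.95 ± 0.44 (adjusted p = 1.8e-04, 20.5% of genes higher) and above cluster 4 by 3.08 ± 0.55 (adjusted p = 3.9e-06, 10.7%). Cluster 1 was below cluster 2 by -1.07 ± 0.34 (adjusted p = 0.012, 16.7% of genes lower), the comparison in which Wnt2b was 2.05 higher. That Rspo3 difference lost its call without collection 1B (-0.59, adjusted p = 0.39) and without collection 2B (-1.0, adjusted p = 0.052), and over all settings tried its adjusted p ranged from 3.2e-04 to 0.39. The call in cluster 1 against the others was not made by DESeq2 (adjusted p = 0.091). Clusters 1 and 3 (adjusted p = 0.34) and 3 and 4 (adjusted p = 0.31) did not differ beyond the threshold.

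In cluster 2 the collections had 45.1, 112, 41.9, 59.7 and 41.9 CPM of Rspo3 in the order 1A, 1B, 2A, 2B and 2C. Collection 1B was highest, and the lowest values lay within the range of cluster 1 (25.7 to 53.8 CPM). The finer division split cluster 2 in 2. Cells led by Has1, Gfpt2 and Ugdh (351 cells) had 102 and 64.7 CPM of Rspo3, and cells led by Pcolce2, Pi16 and Cilp (252 cells) had 35.1 and 22.5 CPM. The first was called higher than the other finer clusters (edgeR adjusted p = 6.5e-13, as were 22.5% of genes) and the second was not (adjusted p = 0.17). The difference between them was not tested. The finer cluster led by Plau was called lower in Rspo3 (adjusted p = 0.016, as were 9.82% of genes). In thinned cells an Rspo3 UMI was found in 22 of 521 cells of cluster 2 (4.22%), 11 of 822 of cluster 1 (1.34%) and 0 of 311 of cluster 5.

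Rspo1, a relative of Rspo3 that acts on the same receptors, was found in fibroblast-like cells alone among the retained cells. All 29 retained UMIs were there, in 28 cells, at 5.95 and 6.79 CPM (13 and 16 UMIs), and the collections had 6, 7, 12, 0 and 4. With no filter Rspo1 was called higher in fibroblast-like cells (edgeR adjusted p = 7.5e-05). The level was at least 3.33-fold above that of 3 counts in blood endothelial-like cells and at least 2.16-fold above it in macrophage-like cells. In lymphatic endothelial-like, pericyte-like and smooth muscle-like cells 3 counts would have given a higher level than that of the fibroblasts, so a difference was not detectable at this depth. Cluster 4, led by the acute-phase gene Saa3, had 11 UMIs (10.1 and 21.1 CPM), cluster 3 had 8 (9.90 and 13.4 CPM), cluster 2 had 6 (7.44 and 4.34 CPM) and cluster 1, the largest, had 2 (1.85 and 1.47 CPM). No comparison of Rspo1 between fibroblast clusters passed the threshold in the unfiltered edgeR test.

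Rspo2 was close to the limit of detection. Of 8 retained UMIs 7 were in fibroblast-like cells (0.915 and 2.12 CPM) and 1 in an enteric neuron-like cell. The fibroblast UMIs fell in cluster 1 (3), cluster 2 (3) and cluster 6 (1). No class or cluster passed for Rspo2 in the unfiltered test, and its fibroblast level was below that of 3 counts in every other tested class.

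Transcripts of different members were seldom captured in the same cell. Of the fibroblast-like cells 324 (10.4%) held a UMI of at least 1 of the 5 genes and 15 held UMIs of 2 or more. Both Wnt2b and Rspo3 were seen in 8 cells, which is 8.25% of the 97 cells with Rspo3 and 4.60% of the 174 cells with Wnt2b. The share of all fibroblast-like cells with Wnt2b was 5.57% and with Rspo3 3.10%. At a median of 1286 UMIs per cell such counts are too sparse to show whether single cells make both. By cluster, 14.6% of cluster 1, 14.1% of cluster 2, 10.8% of cluster 3 and 8.23% of cluster 4 held at least 1 member, against 2.88% of cluster 6 and 0.612% of cluster 5 (2 of 327 cells).

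The rest of the pathway was read from fixed lists. Of 26 tested list genes other than the 5 genes, 16 were higher and 1 lower in fibroblast-like cells, with a median log2 fold change of 1.66, against 33.4% higher, 12.3% lower and a median of 0.18 over all genes. Only list genes that passed the filter on low counts are counted. One that passed through the class or cluster where it was high had to differ there, so these counts and those below are descriptions. Wnt4, Fzd2 and Tcf7l1 gave no result without collection 1A or without 1B. The carrier Wls, which Wnt proteins need for secretion, stood at 273 ± 16.3 CPM in fibroblast-like cells (edgeR adjusted p = 1.7e-34) and was also higher in lymphatic endothelial-like cells (193 ± 7.22 CPM, adjusted p = 2.3e-06). The Wnt receptor genes Fzd1, Fzd2, Fzd7, Lrp6 and Ryk were higher in fibroblast-like cells, Fzd1 at 128 ± 18.0 CPM, as were the antagonists Sfrp1 and Dkk3, the nuclear factors Tcf7l1 and Tcf7l2, Dvl1, Lef1 and Nkd2. The adenomatous polyposis coli gene Apc was lower. The ligands Wnt4, Wnt5a and Wnt11 were higher, with Wnt4 at 66.0 CPM and Wnt5a at 78.4 CPM.

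In lymphatic endothelial-like cells, 1 of the 3 classes in which Rspo3 was called higher, 7 of the 26 list genes were higher and 1 lower, with a median of 0.24. Over all genes the median was -0.03, with 20.5% higher and 13.3% lower. Fzd6, a Frizzled receptor, stood at 54.2 and 53.0 CPM in replicates 1 and 2 (edgeR adjusted p = 3.2e-11), and the blood endothelial-like values were 10.4 and 11.6 CPM. Apc (283 ± 16.6 CPM), Ctnnb1 (365 ± 25.7 CPM), Dvl1, Tcf7l1, Ryk and Wls made up the other higher genes. Fzd6 lay at the edge of the filter and gave no result without collection 1A, 1B or 2B, with split UMIs or with the 5% limit. Dvl1 and Tcf7l1 gave none without collection 1A. Sfrp1, a secreted Wnt antagonist, was the lower gene at 40.2 ± 6.94 CPM, against 630 ± 65.7 CPM in fibroblast-like cells. Axin2, a target that reads out the pathway, had 1 UMI in the lymphatic cells and did not pass the filter.

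The partners of the R-spondins were thinly captured, and none of the 5 listed (Lgr4, Lgr5, Lgr6, Rnf43 and Znrf3) passed the filter. Lgr4 stood at 42.9 ± 5.26 CPM in enteric glia-like, 21.2 ± 3.88 CPM in smooth muscle-like and 9.03 ± 0.167 CPM in fibroblast-like cells. Lgr5 had 31 UMIs in fibroblast-like cells, 26 of them in replicate 1, and 27 of the 31 were in cluster 5, which had no Wnt2b UMI and 1 Rspo3 UMI. The ligase genes Rnf43 and Znrf3 were at 14.6 ± 0.0939 and 15.5 ± 15 CPM in the T cell and innate lymphocyte class, and Lgr6 had 1 UMI, in enteric glia-like cells. These are levels only, with no test.

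The list genes were also read in clusters 1 and 2, where Wnt2b and Rspo3 were highest. The calls compare each cluster with the average of the others, not these 2 clusters with each other. In cluster 1, 4 of 25 list genes were higher and 1 lower (median 0.06, against 0.02 over all genes, of which 7.04% were higher and 6.93% lower). Sfrp1 was at 1082 CPM and Sfrp2 at 28.9 CPM there, both higher, with Fzd1 (187 CPM) and Wls (331 CPM), while Wnt5a, a mainly non-canonical ligand, was lower at 29.7 CPM. Sfrp2 lay at the edge of the filter and gave no result when any 1 of the collections was left out. In cluster 2, 5 of the 25 were higher and 5 lower, against 20.7% and 14.1% of all genes, with medians of 0.14 and -0.0015. These counts lie near the shares of all genes and do not set the list apart there. The antagonist Sfrp4 stood at 96.8 ± 50 CPM in cluster 2 and at 6.29 CPM or less elsewhere, and the coreceptor Lrp6 at 187 ± 3.9 CPM (log2 fold change 1.91 ± 0.18, edgeR adjusted p = 3.9e-16). Sfrp1, Gsk3b and Tcf7l2 were the other higher genes. Wnt4 (3.10 CPM), Wnt5b (4.96 CPM), Dkk3 (136 CPM), Lef1 (1.08 CPM) and Wls (191 CPM) were lower in cluster 2.

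Cluster 5, the cluster without Wnt2b and Wnt2, had Wnt5a at 247 ± 12 CPM and Lef1 at 43.8 ± 8.2 CPM, both called higher, and Sfrp1 was lower there at 98.0 CPM. The lists had 3 genes higher and 3 lower in cluster 5, against 17.7% and 8.97% of all genes. Cluster 6 had a like Wnt5a level (223 ± 74 CPM). Cluster 4, where Rspo1 had most UMIs, showed higher Ror2, Sfrp1, Wls, Wnt4 and Wnt5b (5 genes) and lower Wnt5a (1 gene), against 11.5% and 1.88% of all genes, with a median of 0.12 against 0.04.

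**Figure D5:**
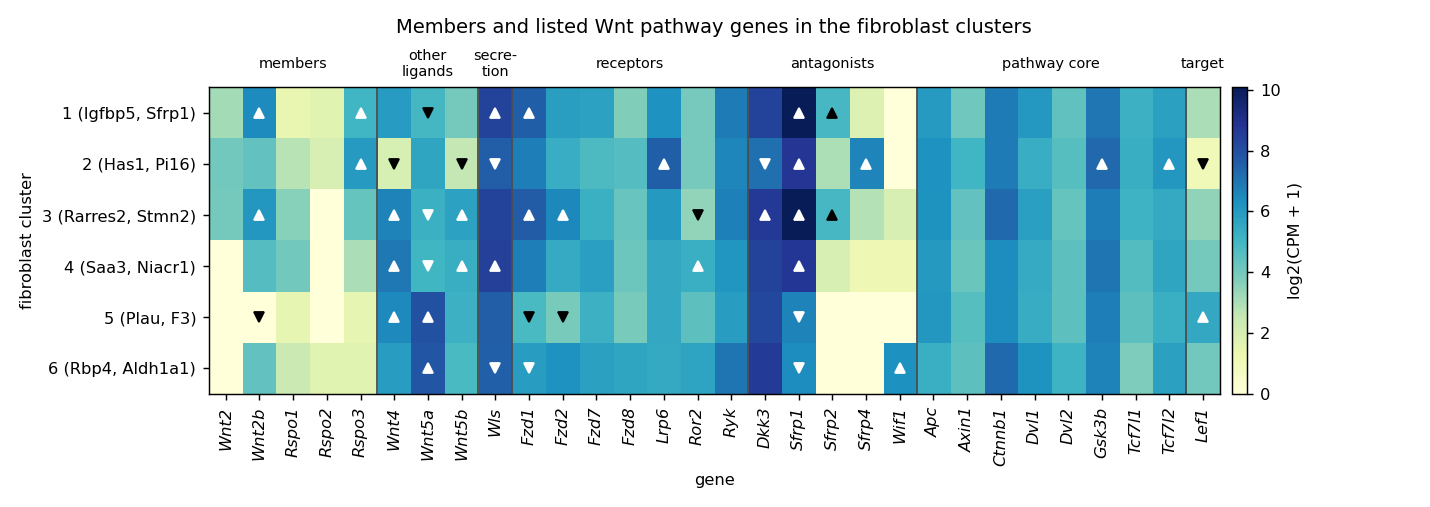
Colour gives log2(CPM + 1), the mean of the 2 biological replicates, for the 5 genes and for the listed pathway genes that passed the filter (horizontal axis, grouped by role) in the 6 fibroblast clusters (vertical axis). Triangles pointing up or down mark genes called higher or lower than the average of the other clusters on the log scale; Wnt2, Rspo1 and Rspo2 did not pass the filter and carry no call, and cluster 5 pairs no Wnt2b UMI with a high Wnt5a (247 CPM).

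The genes whose levels ran most like those of the 2 testable members were found over 15 points, the 9 classes outside fibroblasts and the 6 fibroblast clusters, on log2(CPM + 1), as a description. Points share the same libraries and cells. For Wnt2b the highest Pearson correlations were those of Svep1 (0.873), Mfap4 (0.871), Fgfr2 (0.858), Htra3 (0.853) and Lum (0.838). Mfap4, a microfibril-associated matrix gene, stood at 581 and 588 CPM in clusters 1 and 3 and at 31.5 CPM in cluster 5. For Rspo3 they were Acaa2 (0.847), Ltbp4 (0.841), Stxbp6 (0.834), Abi3bp (0.832) and Fam102b (0.826). Ltbp4, which encodes a latent TGF-beta binding protein, was at 1323 CPM in lymphatic endothelial-like and 646 CPM in smooth muscle-like cells, while blood endothelial-like cells had 234 CPM. In fibroblast clusters 1, 2 and 3 it stood at 1456, 1088 and 1249 CPM. None of the genes most like Rspo3 was highest in cluster 2 among the fibroblast clusters, where Rspo3 itself was.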

How the data were processed

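The authors deposited tables of UMI counts (genes by cell barcodes, whole numbers, not normalized) for 5 collections; STAR 2.6 and mm10 are named per the submitters' processing notes, and the counting program, annotation and use of strand are not given in the sources used here. Barcodes with under 300 genes or over 10% mitochondrial UMIs were left out, and Scrublet marked 0.333% of the rest as doublets, too few for the caller to have worked. Cells were clustered in scanpy 1.11.5 (10000 UMIs scaling, 2000 variable genes, 30 components, 15 neighbours, Leiden) without the 67 Wnt pathway genes in the tables. Classes came from marker genes. Counts were summed per biological replicate and class or cluster with at least 20 cells in each replicate (73009 to 2356584 UMIs per class sum, 117192 to 680012 per cluster sum). They were tested with the quasi-likelihood test of edgeR 4.0.16 (R 4.3.3) after TMM scaling and filterByExpr, with the replicate as a block (since the labels tie the collections to a biological replicate, threshold 0.05), after being tested on simulated data, with DESeq2 1.42.0 as an alternative. The text names the 5 genes, list genes past the threshold where 1 of the 5 is highest, and the 5 genes most alike. Further list levels were chosen after their values were seen. The genes and lists were chosen with earlier results of these data known. Settings tried are given in the closing section.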

Additional observations from a re-analysis of the deposited data

Results flagged for a closer look

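Among 22 sets of 5 collection values, 3 had a highest value far from the other 4. Chance would give about 1 in 20 for independent sets, but these sets share libraries and cells and some rest on few UMIs. In smooth muscle-like cells collection 1B stood at 186 CPM of Rspo3. In fibroblast cluster 2, led by Has1, the same collection stood at 112 CPM of Rspo3. In fibroblast cluster 3, led by Rarres2 and Stmn2, collection 2B stood at 65.8 CPM of Rspo3. The classes and clusters left out barcodes above the mitochondrial limit, which held 70 UMIs of Rspo3 and 10 UMIs of Wnt2b.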

How the results depend on the processing

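Fitted log2 fold changes against classes at 0 depend on the prior count and are no bounds. For Rspo3, a mitochondrial limit of 5% gave -2.45 in smooth muscle-like cells against the others and 8.09 between lymphatic endothelial-like and smooth muscle-like cells, and no limit gave -0.20 for the latter. DESeq2 gave -2.01 between fibroblast-like and lymphatic endothelial-like cells, 1.88 for cluster 1 against the others and -1.18 between clusters 1 and 2. A resolution of 1.0 gave 1.06 for Rspo3 in cluster 1. Splitting UMIs between clustering and testing gave -1.38 for Wnt2b in cluster 5, against -6.66 without the split. Leaving out 1 collection at a time, the fold changes of Rspo3 ranged from 5.56 to 6.25 (lymphatic), 3.68 to 4.07 (fibroblast) and 3.53 to 5.09 (smooth muscle) against the other classes, from -2.07 to -1.68 between fibroblast and lymphatic, from 0.55 to 2.45 between lymphatic and smooth muscle, from 2.63 to 3.79 in cluster 2, from 1.47 to 2.6 in cluster 1 and from -1.33 to -0.59 between these clusters. For Wnt2b they ranged from 2.74 to 2.97 in cluster 1, 2.19 to 2.47 in cluster 3, -6.46 to -6.06 in cluster 5 and 1.93 to 2.20 between clusters 1 and 2.

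Counts of genes called moved more. Fibroblast-like cells had 2311 higher genes, 3925 with no filter, 1456 with sums per collection and 1419 with split UMIs. Lymphatic endothelial-like cells had 1420, and 858 with split UMIs. Smooth muscle-like cells had 1312, 583 with the 5% limit, 2080 with none and 764 with split UMIs. Cluster 1 had 448, and 192 by DESeq2. Cluster 2 had 1319, 828 by DESeq2, 854 with sums per collection and 767 with split UMIs. Cluster 3 had 806, 324 by DESeq2 and 494 with the 5% limit. Cluster 5 had 571 lower genes, and 298 by DESeq2. Over the collections left out, these counts ranged from 1810 to 2282, 1108 to 1420, 988 to 1341, 310 to 415, 1026 to 1195, 614 to 720 and 446 to 532. The causes were not tested.

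Without the replicate block no call on Rspo3 or Wnt2b changed, with Rspo3 at 5.85 in lymphatic endothelial-like cells and -1.06 between clusters 1 and 2, and Wnt2b at 2.92 in cluster 1. With sums per collection none of the 5 genes passed the filter. Rspo3 in clusters 1 and 2 also failed it with split UMIs and with the 5% limit, and Wnt2b in cluster 3 with split UMIs. No reversal was seen among the other genes tested, but several gave no result in some settings. Without collection 1A these were Wnt4, Fzd2, Tcf7l1, Tcf7l2 and Dvl1 in fibroblast-like cells. In lymphatic endothelial-like cells they were Fzd6, Tcf7l1 and Dvl1. Lef1 in cluster 2 gave none without collection 1B. Depth limits Wnt2, Rspo1 and Rspo2 most, at 42, 29 and 8 retained UMIs.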
